A study of Mus musculus with 8 samples.

Results

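The genes described here encode extracellular matrix proteins, and 1 adhesion receptor, of mesenchymal or neural tissue: Thbs1, Postn, Col1a1, Fn1, Tnc, Sparcl1, Ncan, Bcan, Cspg4 and Cdh2. They are 10 of 21887 protein-coding genes in the gene table used here. They were chosen from the peak lists of this series, by the presence and rank of ATAC-seq peaks within 10 kb of each gene across oxygen levels and cultures. Presence and rank are therefore given as a description, with no test. A total of 20 merged regions lay within 10 kb of these genes, of 40784 regions in all.

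The samples are 8 ATAC-seq libraries of BV2 cells, a mouse microglial cell line. In ATAC-seq, the transposase Tn5 cuts and tags open chromatin, and a peak is a stretch with more fragments than the local background. BV2 cells were grown alone, or were plated on top of the mouse glioma line GL261 at a ratio of 1 BV2 cell to 2 GL261 cells. Cultures were kept for 16 h at 21% oxygen (normoxia) or below 0.1% oxygen (hypoxia), which gave monoculture normoxia, monoculture hypoxia, co-culture normoxia and co-culture hypoxia, each with 2 biological replicates. All cells were fixed with formaldehyde and sorted, on CD45 or GFP per the labels, before tagging. A cell line is a limited model of microglia, and the lists do not measure how many glioma cells a sorted co-culture sample still held.

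The extracellular matrix of most organs is built on fibrillar collagens and fibronectin, which mesenchymal cells secrete. The matrix of the brain is poor in these and rich in chondroitin sulfate proteoglycans of the lectican family, made by neurons and glia, bound to hyaluronan and tenascins. Matricellular proteins such as thrombospondins and periostin do not build fibres but alter how cells hold on to the matrix. Glial tumours are known to produce both kinds of matrix, whereas microglia are better known for degrading it.

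Peaks near the matrix genes were found mostly in co-culture. The libraries held 45 peaks near them, counting the best-ranked peak of each region in each library, with 5 in monoculture and 40 in co-culture. In monoculture normoxia, 0 of 10 genes had a peak in either replicate. In monoculture hypoxia, 1 gene (Thbs1) had a peak in replicate 1 and 4 genes (Thbs1, Cspg4, Fn1 and Tnc) in replicate 2. In co-culture normoxia 8 and 5 genes had a peak, and in co-culture hypoxia 9 and 6. In the lists as deposited, every co-culture library therefore held more of these genes than every monoculture library, as it did of all protein-coding genes. The hypoxic and normoxic libraries of co-culture overlapped. Group means (± SD, n = 2) were 0 ± 0 for the normoxic and 2.5 ± 2.12 for the hypoxic monocultures, and 6.5 ± 2.12 for the normoxic and 7.5 ± 2.12 for the hypoxic co-cultures. Over both oxygen levels, co-culture libraries held 5.75 more of the genes than monoculture libraries, and over both cultures hypoxic libraries held 1.75 more than normoxic ones. The second difference was 1 when replicate 2 of monoculture hypoxia, replicate 2 of co-culture normoxia or replicate 1 of co-culture hypoxia was left out. The pooled SD between replicates was 1.84. Both differences are made of the presence values that chose the genes, so neither is evidence of an effect.

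**Figure D1:**
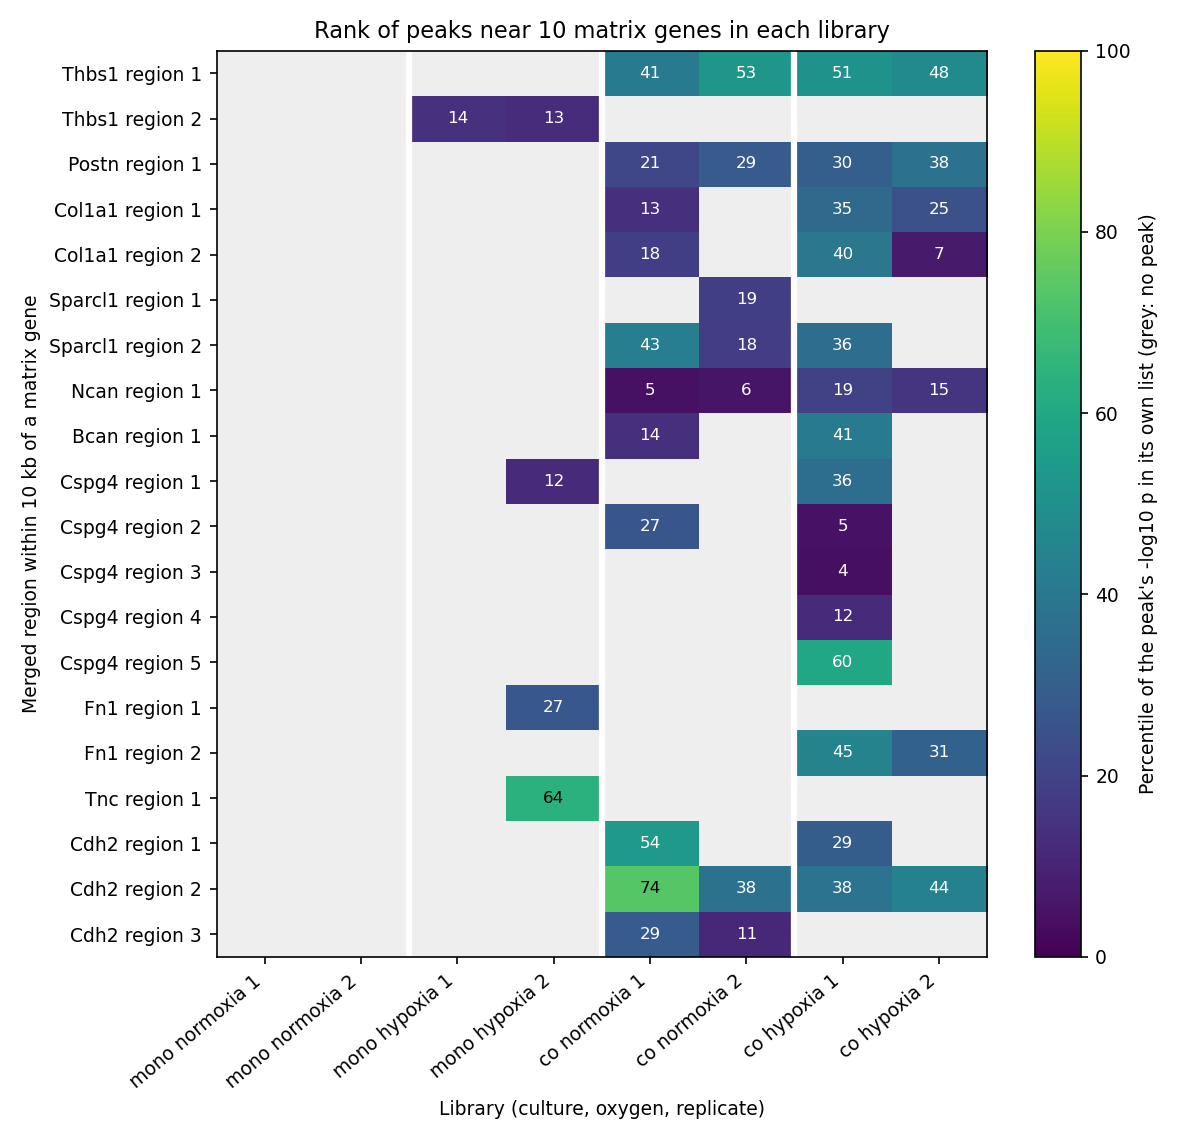
Merged regions within 10 kb of the 10 matrix genes (rows, numbered by position along the chromosome within each gene) in the 8 libraries (columns, mono for monoculture and co for co-culture), with colour and number for the percentile of the best peak by −log10 p among the peaks of that library, and grey for no peak. The 2 monoculture normoxia columns are empty, and 40 of the 45 filled cells lie in the 4 co-culture columns.

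The lists differ in length, and this touches every count above. They held from 9910 to 29658 peaks, and both monoculture normoxia lists were the shortest (13333 and 9910 peaks). Any protein-coding gene had a peak within 10 kb in 42.8% and 35.8% of cases in monoculture normoxia, 57.5% and 58.4% in monoculture hypoxia, 59.0% and 59.9% in co-culture normoxia, and 64.5% and 60.5% in co-culture hypoxia. The monoculture hypoxia lists held 24370 and 26339 peaks and the co-culture normoxia lists 21790 and 21826, with 1 and 4 against 8 and 5 of the 10 genes. The part of list length in the difference between cultures was not tested. Read numbers are not given in the sources used here. The background coverage estimated from the deposited values in fragments at a position was 0.758 and 1.03 for the normoxic monocultures, 1.45 and 1.41 for the hypoxic ones, 1.07 and 1.38 for the normoxic co-cultures, and 1.42 and 1.17 for the hypoxic ones. Lists rescaled to equal background coverage left 0 and 0, 1 and 4, 8 and 4, and 9 and 6 genes in the same order of groups. Replicate 2 of co-culture normoxia then held no more of the genes than replicate 2 of monoculture hypoxia.

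**Figure D2:**
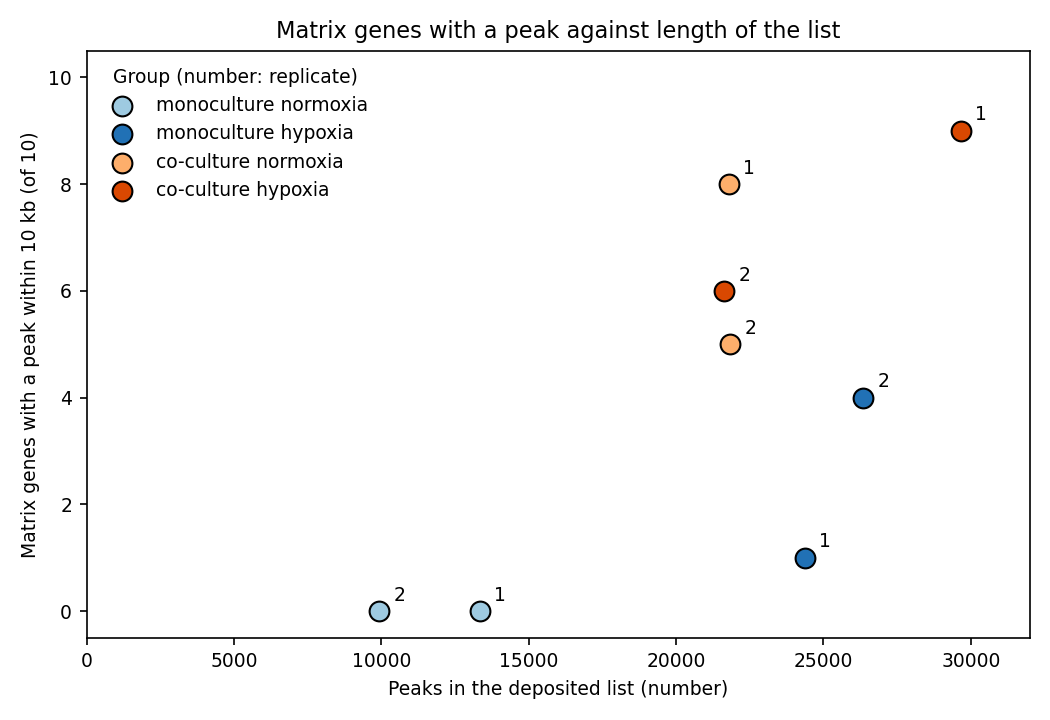
Number of the 10 matrix genes with a peak within 10 kb (vertical axis) against the number of peaks in the deposited list (horizontal axis), 1 point per library, coloured by group and numbered by replicate. Both monoculture hypoxia lists are longer than 3 of the 4 co-culture lists and lie below them, at 1 and 4 genes against 5 to 8.

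The peaks near matrix genes ranked low. A percentile of 100 marks the peak of a list with the highest deposited −log10 p. Of the 45 peaks, 6 lay above percentile 50, the median was 29.3, and the range ran from 4.16 to 73.6. Only 2 of the 45 were among the 9910 highest-ranked peaks of their list, the length of the shortest list. Those were the peak inside Cdh2 in co-culture normoxia replicate 1 and the peak inside Tnc in monoculture hypoxia replicate 2. In lists cut to that equal number, the difference of 5.75 genes between cultures was 0, as was that of 1.75 between oxygen levels. Ranks from lists of different length show no change in accessibility, so percentiles are compared only as positions within a list.

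Each peak's fragments at the summit were estimated from its deposited fold and −log10 p. The 45 peaks held from 11 to 37 fragments, with a median of 19, and their deposited folds over background ran from 3.07 to 10.1. At the most frequent background, the weakest peaks called in a list held 6 and 7 fragments in monoculture normoxia, 8 and 8 in monoculture hypoxia, 7 and 7 in co-culture normoxia, and 8 and 7 in co-culture hypoxia. Where the local background was higher, as at Ncan, a peak needed more fragments to be called. Absence from a list means only that the threshold was not reached, and is no measurement of closed chromatin.

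**Figure D3:**
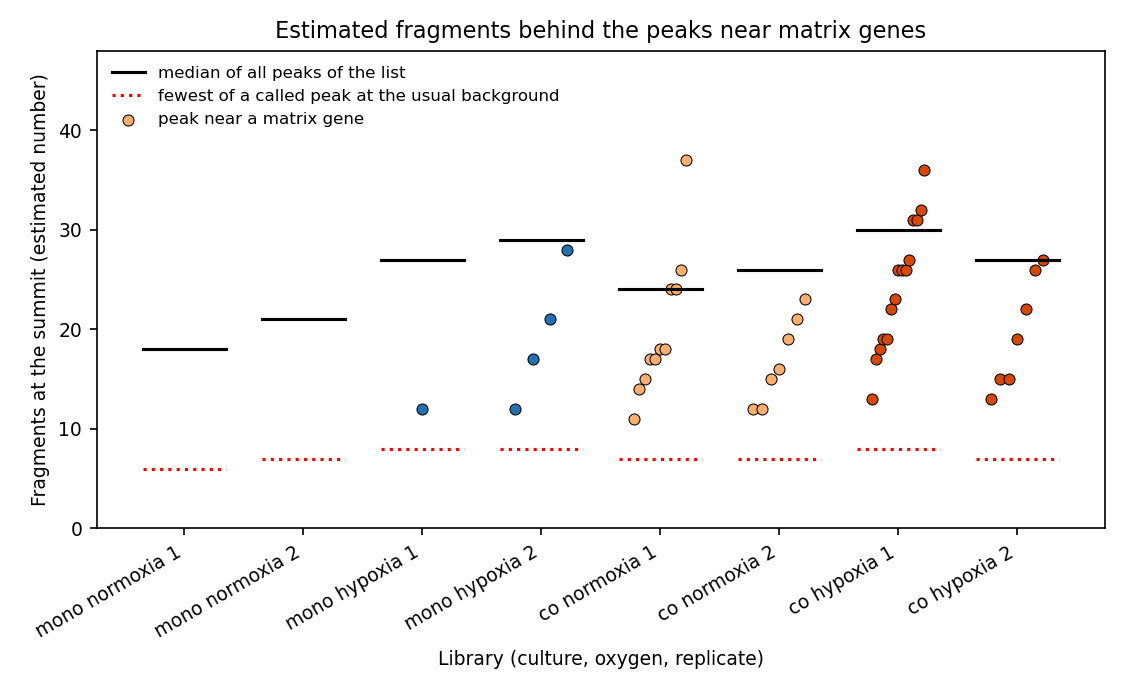
Estimated fragments at the summit (vertical axis) of each peak near a matrix gene (points) in the 8 libraries (horizontal axis), with the median of all peaks of the list (solid line) and the fewest fragments of a called peak at the most frequent background (dotted line). The points run from 11 to 37 fragments, against medians of all peaks from 18 to 30.

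Of the matricellular genes, Thbs1 and Postn each had a region in every co-culture library and in no monoculture library. Thbs1 (thrombospondin-1, a secreted glycoprotein that binds the receptors CD36 and CD47 and activates latent TGF-beta) lies on chromosome 2 from 118111876 to 118127133. A region 52 bp outside its lower-coordinate end (chr2:118110818-118111824) was called in all 4 co-culture libraries and in no monoculture library. The percentiles were 41.1 and 52.8 in co-culture normoxia and 50.9 and 47.5 in co-culture hypoxia. The estimated fragments were 18 and 23 in normoxia and 27 and 26 in hypoxia. The deposited folds, which allow for each library's background, were 7.05 and 7.98 in normoxia and 8.14 and 7.07 in hypoxia and overlapped. The 4 summits lay within 372 bp. No other protein-coding gene lay within 10 kb of this region.

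A second Thbs1 region showed the opposite arrangement. It lay inside the gene, 1393 bp from the higher-coordinate end (chr2:118125336-118126144), and had a peak in both monoculture hypoxia libraries alone. Its percentiles were 14.2 and 12.9, with 12 fragments in each library. Both peaks were thus among the weaker ones of their lists. Fsip1 lay within 10 kb of this region as well.

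Postn (periostin, a matricellular protein that binds collagen and integrins) lies on chromosome 3 from 54359267 to 54391041, on the plus strand. Its single region (chr3:54358534-54359050) ended 217 bp before the start, and all 4 co-culture libraries but no monoculture library had a peak there. The percentiles were 21.1 and 28.8 in co-culture normoxia and 30.3 and 37.9 in co-culture hypoxia, with 15 and 15 fragments in normoxia and 19 and 19 in hypoxia. The 4 summits lay within 70 bp, and no other protein-coding gene lay within 10 kb. Ncan (neurocan, a lectican of the brain matrix made by neurons and astrocytes) lies on chromosome 8 from 70093085 to 70120863, on the minus strand. Its region (chr8:70129379-70130550) lay 8516 bp from the gene, before its start, and was called in the same 4 libraries. The percentiles were 4.64 and 5.55 in co-culture normoxia and 19.4 and 15.3 in co-culture hypoxia, with 17, 16, 31 and 27 fragments in the same order. The estimated local background was 4.44, 4.53, 7.52 and 7.10 fragments and the deposited folds 3.31, 3.07, 3.76 and 3.46, so background and fragments were both higher in the hypoxic libraries. These are the lowest-ranked of the 4 regions called in every co-culture library. The Ncan region lay within 1 kb of Rfxank and Nr2c2ap, so the peak cannot be assigned to Ncan alone.

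The 250 bases before the start of both genes are shown because the Postn peak reaches that stretch and the Ncan peak does not. Sequences are from RefSeq (GRCm38.p6), 5′ to 3′ on the strand of the gene. In the Postn sequence (chr3:54359017-54359266, plus strand) the capitals mark the 34 bases inside the merged region, which the peak of 1 library (co-culture normoxia replicate 1) reached. In the Ncan sequence (chr8:70120845-70121094, minus strand), which lay 8285 bp from the nearest region, the capitals mark motif matches.
Postn: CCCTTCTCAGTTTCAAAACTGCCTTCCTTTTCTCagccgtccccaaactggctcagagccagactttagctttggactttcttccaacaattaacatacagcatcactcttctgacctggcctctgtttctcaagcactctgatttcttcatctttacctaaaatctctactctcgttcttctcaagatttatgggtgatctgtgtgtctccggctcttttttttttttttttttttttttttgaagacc
Ncan: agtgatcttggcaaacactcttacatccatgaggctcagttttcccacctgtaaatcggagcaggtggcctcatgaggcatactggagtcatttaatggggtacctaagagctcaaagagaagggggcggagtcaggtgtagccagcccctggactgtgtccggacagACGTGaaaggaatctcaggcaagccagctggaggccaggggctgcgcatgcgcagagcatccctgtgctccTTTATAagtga

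The Postn stretch was 40.4% G and C with 3 CpG sites and the Ncan stretch 54.4% with 6, against medians of 52.4% and 6 over 32851 start sites. Both strands were searched for 5 motifs. The core of the hypoxia response element, ACGTG, is bound by hypoxia-inducible factors and was found in 16.6% of all start sites in the same 250 bases. The site of AP-1 factors, TGANTCA, was found in 6.75%, and that of TEAD factors, GGAATG, which act downstream of YAP in mesenchymal cells, in 12.6%. The TATA box, TATAAA, which places the start of transcription, was found in 12.4%, and the CCAAT box, spelled as named, in 33.8%. The Ncan stretch held the hypoxia response core, beginning 82 bases before the start, and a TATA match on the opposite strand, beginning 11 bases before it. The Postn stretch shown held none of the 5. The 2 matches do not overlap. A match describes letters only. Bcan, Tnc and Cspg4 also had start sites in the table, and with the second start of Postn these were 5 more stretches, none of which a peak reached in any library. Of these, the second Postn stretch held a TATA match and the Bcan stretch a CCAAT match. Both Tnc stretches, which overlap, held the same TATA match.

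**Figure D4:**
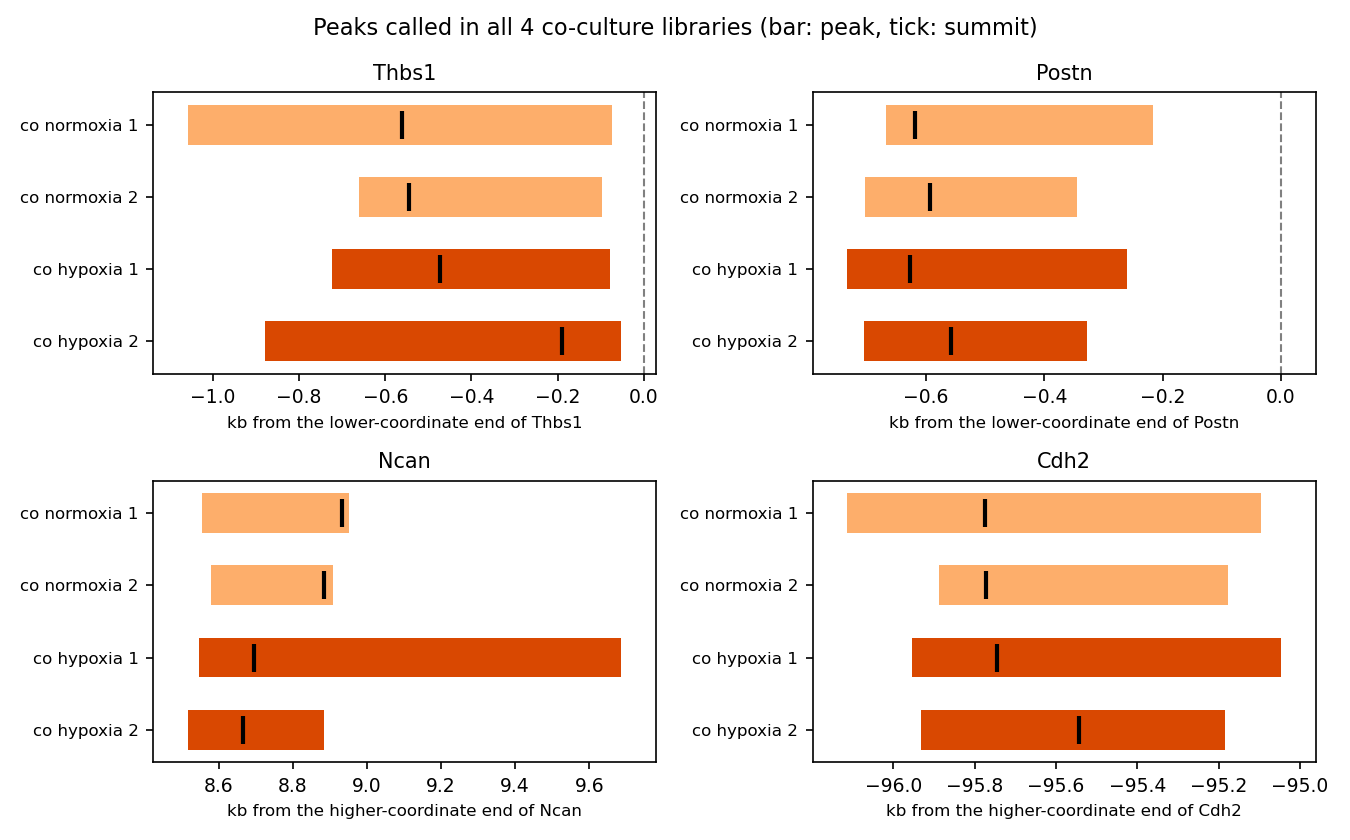
Peaks of the 4 regions called in every co-culture library and in no monoculture library, as bars with the summit as a tick, 1 row per library, against the distance in kb from the nearer end of the gene (dashed line at that end where it is in view). The Thbs1 and Postn peaks lie just outside a gene end, the Ncan peaks over 8 kb away and the Cdh2 peaks deep inside the gene.

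Among the adhesion genes, Cdh2 (N-cadherin, which joins neural and mesenchymal cells to each other) had 3 regions, all in co-culture alone. The gene lies on chromosome 18 from 16588877 to 16809246 and is the longest of the 10, at 220 kb. A region inside it, 95580 bp from the higher-coordinate end (chr18:16713133-16714199), was called in all 4 co-culture libraries. The percentiles were 73.6 and 37.7 in co-culture normoxia and 38.3 and 44.0 in co-culture hypoxia, with 37, 21, 26 and 22 fragments in the same order. Replicate 1 of co-culture normoxia stood above the other 3. A second internal region (chr18:16703530-16704018) had a peak in replicate 1 of each co-culture group, at percentiles 54.3 in normoxia and 29.5 in hypoxia. The third lay over the higher-coordinate end (chr18:16808441-16809771) and had a peak in both co-culture normoxia libraries and neither hypoxic one, at percentiles 29.3 and 11.5 and with 17 and 12 fragments.

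Of the mesenchymal fibre proteins, Col1a1 and Fn1 had regions in co-culture but not in every library. Col1a1 (the alpha-1 chain of type I collagen, the main fibrillar collagen) lies on chromosome 11 from 94936224 to 94953042. Its first region lay inside the gene with its middle 938 bp from the lower-coordinate end (chr11:94936847-94937478). It had a peak in co-culture normoxia replicate 1 (percentile 13.4, 11 fragments) and in co-culture hypoxia (percentiles 34.6 and 24.6, 19 and 15 fragments), with summits within 10 bp. Its second region, 4857 bp beyond the higher-coordinate end (chr11:94957899-94958531), was called in the same 3 libraries, at percentiles 18.5, 39.6 and 7.34. Sgca and Hils1 also lay within 10 kb of the second region. Both Col1a1 regions were absent from co-culture normoxia replicate 2.

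Fn1 (fibronectin, which links cells to the matrix through integrins) lies on chromosome 1 from 71585473 to 71653280. A region over its higher-coordinate end (chr1:71653035-71653489) had a peak in both co-culture hypoxia libraries and in no other library. The percentiles were 44.8 and 30.9, with 23 and 15 fragments, and the summits lay 68 bp apart. Another region, 9111 bp below the gene (chr1:71575964-71576362), had a peak in monoculture hypoxia replicate 2 alone, at percentile 27.0. It lay within 1 kb of Atic.

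Tnc (tenascin-C, a hexameric matricellular protein of embryonic tissue, wounds and glioma) lies on chromosome 4 from 63959785 to 64047015 and was the only one of the 10 genes with a peak in monoculture and in no co-culture library. The peak (chr4:63970875-63971194) lay inside the gene in monoculture hypoxia replicate 2, at percentile 64.0 with 28 fragments and a fold of 10.1. It was missing from replicate 1 of that group.

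Of the remaining neural genes, Sparcl1 and Cspg4 had a peak in 3 libraries each and Bcan in 2. Sparcl1 (hevin, a matricellular protein of astrocytes that promotes synapses) lies on chromosome 5 from 104079108 to 104114088. A region inside it (chr5:104108449-104109185) had a peak at percentiles 42.9 and 18.3 in co-culture normoxia and at 35.9 in co-culture hypoxia replicate 1. A second region (chr5:104072439-104072747) had a peak in co-culture normoxia replicate 2 alone, at percentile 18.7, within 1 kb of Gm17660. Bcan (brevican, the smallest lectican and a product of glia) lies on chromosome 3 from 87987531 to 88002175. Its region, 4205 bp below the gene (chr3:87982578-87983326), had a peak in replicate 1 of co-culture normoxia and of co-culture hypoxia, at percentiles 13.6 and 41.0. Nes, which encodes the neural progenitor filament nestin, lay within 10 kb of the same region.

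Cspg4 (the proteoglycan NG2, a surface marker of oligodendrocyte progenitors and pericytes) lies on chromosome 9 from 56865104 to 56899870 and had 5 regions, the most of any of the 10 genes. All 5 had a peak in co-culture hypoxia replicate 1, at percentiles 36.0, 5.02, 4.16, 12.2 and 59.6 from the lowest to the highest coordinate. The first (chr9:56870737-56871388) also had a peak in monoculture hypoxia replicate 2, at percentile 12.2, and is the only one of the 20 regions called in both cultures. The second (chr9:56876909-56877441) also had a peak in co-culture normoxia replicate 1, at percentile 26.7. The other 3 rest on that single co-culture hypoxia library, which has the longest list of the series. No Cspg4 region was called in both replicates of any group.

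For the contrasts, a region was called gained where both (or all 4) libraries of the first level and none of the second had a peak, and lost in the reverse case. A gene was called where at least 1 region within 10 kb was. Since the genes were chosen by the same lists, the shares of all 21887 protein-coding genes are printed beside their counts and nothing is read from the difference. The 10 genes had a median length of 33.3 kb against 17.2 kb over all protein-coding genes. The part of gene length in these counts was not tested. With co-culture over both oxygen levels, 4 of the 10 genes (Thbs1, Postn, Ncan and Cdh2) had a gained region, against 3.54% of all protein-coding genes, and 0 had a lost region, against 0.0183%. The 4 regions themselves compare with 1.98% of all merged regions gained by this rule. With hypoxia over both cultures, 0 of the 10 genes had a gained region, against 3.11%, and 0 a lost one, against 0.064%.

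In the contrasts of 2 libraries against 2, co-culture in normoxia gave gained regions at 5 of the 10 genes (Thbs1, Postn, Sparcl1, Ncan and Cdh2), against 21.4% of all protein-coding genes, and lost regions at 0, against 0.215%. Co-culture in hypoxia gave gained regions at 6 (Fn1, Thbs1, Postn, Ncan, Col1a1 and Cdh2), against 10.5%, and a lost region at 1 (Thbs1, the internal region), against 5.03%. Hypoxia in monoculture gave a gained region at 1 gene (Thbs1, the internal region), against 23% of all protein-coding genes, and lost regions at 0, against 0.397%. Hypoxia in co-culture gave a gained region at 1 gene (Fn1), against 9.5%, and a lost region at 1 (Cdh2, the region over its end), against 3.29%. The contrasts share libraries with each other. The numbers of regions were 6 gained with co-culture in normoxia and 7 in hypoxia, and they depended on single libraries: the first was 12 once co-culture normoxia replicate 2 was left out, and the second 14 once co-culture hypoxia replicate 2 was. Hypoxia gained 1 region in monoculture, or 4 without monoculture hypoxia replicate 1, and 3 regions in place of 1 were then lost with co-culture in hypoxia. Hypoxia in co-culture gained 1 region, or 3 when replicate 1 of co-culture normoxia was left out and 5 when replicate 2 of co-culture hypoxia was. It lost 1, or 2 without co-culture normoxia replicate 1, co-culture normoxia replicate 2 or co-culture hypoxia replicate 1. Leaving out a library loosens the rule by construction.

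Markers of glioma, glial and neural progenitor cells had peaks in all 8 libraries. A list of 20 such genes had 3 and 2 genes with a peak in monoculture normoxia, 4 and 5 in monoculture hypoxia, 9 and 6 in co-culture normoxia, and 10 and 8 in co-culture hypoxia. Every co-culture library again held more of them than every monoculture library. The same order held for all protein-coding genes, at 59.0% or more in each co-culture library and 58.4% or less in each monoculture library. Of the 20, 7 (among them Sox2, Olig1, Nes, Gfap, Pdgfra and Sox10) had peaks in co-culture alone, against 6 of the 10 matrix genes and 6.92% of all protein-coding genes. The Bcan region lies within 10 kb of Nes as well, so it counts on both sides. The markers Olig2, Egfr, Sox9, Fabp7, Ptprz1, Gpm6a, Aqp4 and Dll1 had a peak in no library. The other markers had peaks in both cultures: S100b in 2 monoculture and 2 co-culture libraries, Nkx2-2 in 2 and 3, Slc1a3 and Aldh1l1 in 3 and 4 each, and Nfia in all 8. By the rule for gained regions explained above, 1 of the 20 (Nfia, a glial transcription factor) was gained with co-culture over both oxygen levels, at percentiles from 10.2 to 45.7, which is near the share of 3.54% over all protein-coding genes. The part of glioma chromatin carried through the sort in the peaks at matrix genes was not tested. Fewer cells of a type and less open chromatin per cell cannot be told apart in bulk libraries.

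Microglial and macrophage markers were found in every library, and least in the 2 shortest lists. Of 20 such genes, 11 and 10 had a peak in monoculture normoxia, 16 and 15 in monoculture hypoxia, 17 and 18 in co-culture normoxia, and 17 and 14 in co-culture hypoxia. Ptprc, which encodes the sort marker CD45, had a peak in all 8 libraries, as did Csf1r, Aif1, Cx3cr1, P2ry12, Trem2 and Cd14. C1qa and C1qb had none in any library. Mertk was the 1 marker of this list gained with co-culture over both oxygen levels, at percentiles from 13.4 to 56.1, and 1 of 20 is again near the 3.54% of all protein-coding genes.

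**Figure D5:**
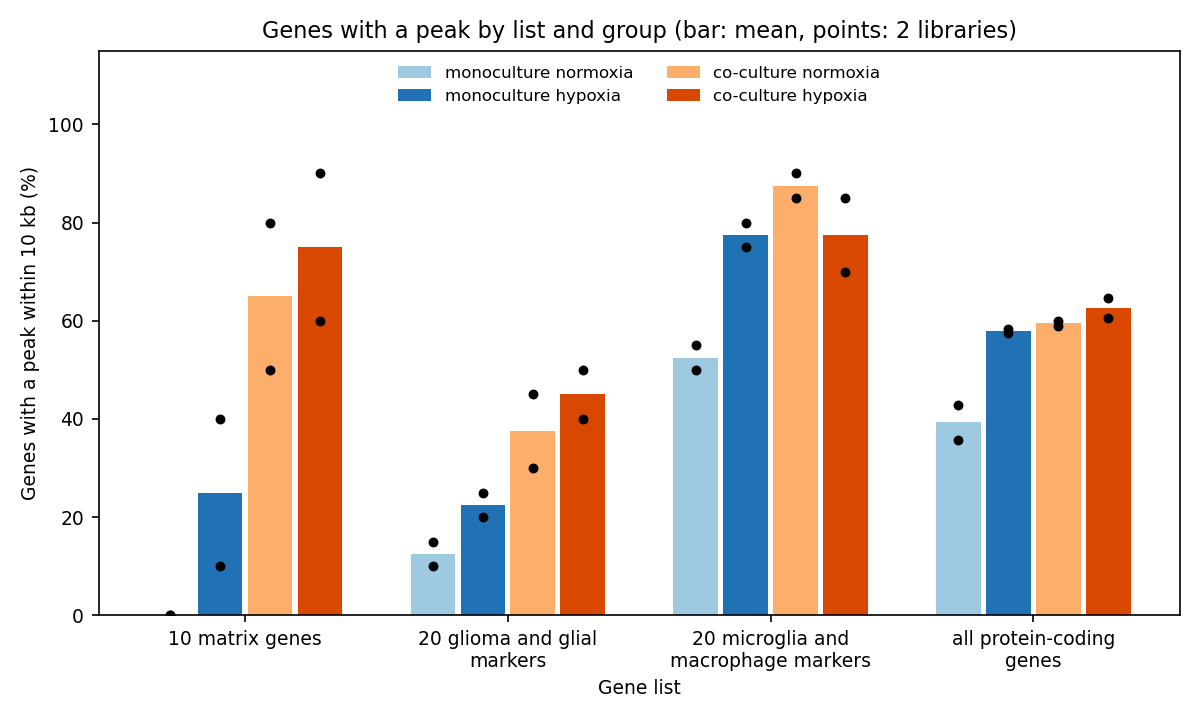
Share of genes with a peak within 10 kb (vertical axis, percent) for 4 gene lists, by group, with bars for the mean and points for the 2 libraries of each group. The matrix genes run from 0% in monoculture normoxia to 60% and 90% in co-culture hypoxia, the glioma and glial markers from 10% and 15% to 40% and 50%, and all protein-coding genes from 35.8% and 42.8% to 60.5% and 64.5%.

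The wider matrix programme was read from 99 further genes in 7 lists (collagens, collagen-modifying enzymes, lecticans and perineuronal matrix, matricellular and elastic fibre proteins, basement membrane, receptors and cadherins, and mesenchymal transcription factors). Of these, 41 and 35 had a peak in monoculture normoxia, 57 and 55 in monoculture hypoxia, 62 and 54 in co-culture normoxia, and 73 and 64 in co-culture hypoxia. The ranges of monoculture hypoxia and co-culture normoxia overlap, unlike those of the 10 genes in the same lists. At equal background coverage the ranges of the 10 genes met (1 and 4 against 8 and 4). With gene bodies alone they overlapped (1 and 3 against 4 and 2). A gained region with co-culture over both oxygen levels was found at 8 of the 99, against 3.54% of all protein-coding genes, and 0 had a lost one, against 0.0183%. The 99 genes were longer than most, with a median length of 61.2 kb against 17.2 kb over all protein-coding genes, and the part of gene length in the count was not tested. The median gene had a peak in as many co-culture as monoculture libraries (median difference 0), as over all protein-coding genes (0), while the median of the 10 genes was 2.5 libraries more in co-culture. The 10 genes were chosen by their peaks, and the lists of the 99 were drawn up with earlier results of these data known, so nothing is read from this difference.

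By list, the basement membrane had the most, with 3 of 11. Lama4 (a laminin chain of vessels) was called in all 4 co-culture libraries at percentiles from 65.7 to 83.3 (chr10:38964833-38965576) and no peak within 10 kb in any monoculture library. Lamb1 ranged from 25.3 to 69.5 and Lamb2 from 33.3 to 63.0 at their gained regions. Among 18 matricellular genes, Sparc (osteonectin, the paralogue of Sparcl1) was gained alone, at percentiles from 28.4 to 46.8 (chr11:55423759-55424292), with no peak in monoculture. Of 13 collagens, Col18a1 was gained (from 38.6 to 61.9), and of 19 receptors and cadherins 2 were, of which Itga2 ranked higher (from 35.4 to 59.99). Of 14 transcription factors, Runx2 was gained (from 22.5 to 49.8). None of 12 collagen-modifying enzymes and none of 12 lectican and perineuronal genes was gained by this rule.

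The regions nearest inside the limit of 10 kb were the Fn1 region at 9111 bp, called in 1 library, and the Ncan region at 8516 bp, called in 4. The nearest outside was at 10198 bp from Ncan and was called in 7 libraries, 3 of monoculture and 4 of co-culture. The next outside were at 16183 bp from Bcan, called in 2 co-culture libraries, and at 16217 bp from Tnc, called in 2 monoculture libraries.

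Position relative to the gene played no part in the choice beyond the limit of 10 kb. Of the 20 regions, 10 lay wholly inside a gene, 2 over a gene end and 8 outside, and 5 lay within 1 kb of a gene end, counted from the middle of regions that touch the gene and from the nearer edge of the others. The widest peak among them, at Ncan, spanned 1143 bp. A further protein-coding gene lay within 10 kb of 7 of the 20. As for presence, by which the genes were chosen, 6 of the 20 regions were called in 1 library, 4 in 4 libraries and 0 in 5 or more.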

How the data were processed

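ATAC-seq peaks of 8 BV2 libraries were analysed, 1 deposited list per library, so replicates were not pooled. The submitters' processing notes name Trimmomatic 0.36, HISAT2 2.1.0, Picard, SAMtools, deepTools and MACS2 2.1.1.2, and the build mm10. Their settings, the Tn5 shift and read totals are not given in the sources used here. Each list gives the authors' fold (a ratio of summit to background), −log10 p and −log10 q, a summit, and a deposited score, MACS2's integer form of −log10 q, which was left unused. These values are each list's own and rank peaks only within it.

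Peaks of all lists overlapping by at least 1 bp were merged. Genes came from RefSeq GRCm38.p6 without strand, and strands of 5 of the 10 genes from its promoter table. Fragments n and background b were solved from fold = (n + 1)/(b + 1) and the Poisson probability of more than n, to within 0.001 of the deposited −log10 p, which 99.8% to 99.9% of peaks met. The code was tested on simulated data. Scripts ran under Python 3.11.15 with pandas 2.3.3, numpy 2.4.6, matplotlib 3.10.9 and scipy 1.17.1.

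The genes, lists and alternatives were chosen with earlier results of these data known. All 10 genes are named, with each of their 20 regions. Of other lists, genes with a region gained or lost in 4 against 4 libraries are named, at most 4 a list by highest minimum percentile, together with Ptprc and, chosen after their values were seen, the cell type markers with their peaks, of which some are not reported here by name. Alternatives were lists of equal number, other flanks, a stricter −log10 q of 3, summits with 250 bp on each side, each library left out and, added later, equal background coverage. Every comparison here is a description, because the genes were chosen from the same lists.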

Additional observations from a re-analysis of the deposited data

How the results depend on the processing

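Of 237 values recomputed under the alternatives, 31 moved beyond the replicate SD or a 1.5-fold change of count. Many of the others could not move, since the library left out was not in the contrast, so the tally is no measure of stability. The difference of 5.75 genes between cultures was 0 in equal-number lists, 2.5 with gene bodies alone and 3.75 with 50 kb on each side, and ran from 5 to 6.5 when a library was left out. The full separation of the cultures was lost in equal-number lists, where each library held 0 or 1 gene. It was also lost with gene bodies alone, with 3 genes in monoculture hypoxia replicate 2 and 2 in co-culture normoxia replicate 2. At equal background coverage these 2 libraries held 4 genes each. The difference of 1.75 genes between oxygen levels was 0 in equal-number lists, 1.5 with gene bodies alone and 1.25 with 50 kb on each side, and ran from 1 to 2.5 when a library was left out. In equal-number lists every count of gained or lost regions was 0. With gene bodies alone, 3 regions were gained with co-culture in normoxia, 3 in hypoxia and 1 over both. With 50 kb on each side, hypoxia gained 3 regions in monoculture and 2 in co-culture and lost 2 in co-culture, and co-culture in hypoxia lost 3. Leaving out a library gave from 1 to 4 regions gained with hypoxia in monoculture, from 1 to 5 gained and 1 to 2 lost with hypoxia in co-culture, from 6 to 12 gained with co-culture in normoxia, and from 7 to 14 gained and 1 to 3 lost with co-culture in hypoxia. It gave from 4 to 6 gained with co-culture over both oxygen levels. The stricter threshold, summit windows and equal coverage (added after seeing the data) moved no count by more than 1.5 times. The loss in equal-number lists follows from the low rank of these peaks. No paired analysis was possible because the results come from no test. Depth limits every absence, since a region under about 6 to 8 fragments could not be called at the most frequent background. More were needed where the local background was higher, as at Ncan (4.44 to 7.52 fragments).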

Other observations

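Single regions near some matrix and adhesion genes outside the 10 were called by oxygen level. A region gained in all 4 hypoxic and no normoxic library lay within 10 kb of 6 of the 99 further genes, against 3.11% of all protein-coding genes. The part of the greater length of the 99 in this count was not tested. Cd36, a scavenger receptor that binds thrombospondin-1, had one at percentiles from 59.0 to 84.6 (chr5:17839305-17839952), and Vtn, which encodes vitronectin, had one from 56.0 to 76.8 (chr11:78497699-78498343). Cd44, the hyaluronan receptor, ranged from 21.6 to 60.5, the integrin gene Itga4 from 27.4 to 57.1, Col5a2 from 4.78 to 65.1 and Col4a1 from 7.81 to 18.0. Of these genes, Cd36 and Itga4 had other peaks that gave them a peak in all 8 libraries, and Cd44, Col4a1 and Vtn had other peaks in some normoxic libraries. Ptprc had 2 such regions, the higher at percentiles from 65.8 to 78.5 (chr1:138158491-138159312). Its peaks in the 4 normoxic libraries therefore lie in its other regions. Of 21887 protein-coding genes, 681 had a region gained with hypoxia by this rule and 775 one gained with culture.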
